A study of Homo sapiens and Mus musculus with 15 samples.

Results

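The genes described here encode the nuclear subunits of the mitochondrial respiratory chain and of ATP synthase. They were taken by symbol: names beginning NDUFA, NDUFB, NDUFC, NDUFS or NDUFV followed by a digit (complex I), SDHA to SDHD (complex II), names beginning UQCR (complex III), COX4 to COX8 (complex IV) and ATP5 (ATP synthase), ignoring case. A gene was kept where its mean in the naive libraries of its line was at least 1 CPM, the read count scaled to the library's total. This gave 80 of 85 matching symbols among 23329 genes in mouse 5TGM1, and 79 of 91 among 23346 genes in human 8226. All of these members entered the tests, and 75 symbols were members in both lines. NDUFA4 and its paralog NDUFA4L2 were counted with complex IV. In each line 4 members were left out of the complexes as non-subunits: COX4NB (a membrane protein complex gene that lies beside COX4I1), COX7A2L (a supercomplex assembly factor), ATP5S and ATP5SL. Counts, medians and correlations over all members include these 4.

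Complexes I and II pass electrons from NADH and succinate to coenzyme Q, complex III passes them on to cytochrome c, and complex IV hands them to oxygen. Complexes I, III and IV pump protons as they work, and ATP synthase lets the protons back to make ATP. All subunits of complex II, and most of the others, are encoded in the nucleus, while a few core subunits come from mitochondrial DNA. Myeloma cells are malignant plasma cells, which secrete large amounts of immunoglobulin and rely on the proteasome. Bortezomib and carfilzomib are proteasome inhibitors used against them.

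The study compared drug-naive with drug-resistant cells of 2 myeloma lines, in 5 groups of 3 libraries. 5TGM1 came from a plasma cell tumour of C57Bl/KaLwRij mice. 8226 (RPMI-8226) is an established human myeloma line. For 5TGM1 there were naive cells and bortezomib-resistant cells (kept in 20 nM bortezomib), and for 8226 naive, bortezomib-resistant (10 nM bortezomib) and carfilzomib-resistant (10 nM carfilzomib) cells. All groups were grown in the same serum-rich medium with sodium pyruvate and, per the labels, were less than a month from thawing. Drug was withdrawn from the resistant cells for the last 5 days before lysis. The labels do not say whether the 3 libraries of a group came from separate cultures, so the tests measure the spread between libraries, which may be technical. Each drug and line had a single resistant line, so changes that arose while it was derived cannot be told apart from those of resistance.

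Gene reads per library ran from 49097494 to 72288680 in 5TGM1 and from 31709636 to 58419576 in 8226. Plasma cell markers were high in every group, with a summed level of 6483 to 6739.5 CPM in naive and 8873 to 9259 CPM in bortezomib-resistant 5TGM1. In 8226 the sum was 8621 to 9796 CPM in naive, 3885 to 4025 CPM in bortezomib-resistant and 5752 to 5959 CPM in carfilzomib-resistant libraries, and the part of these shifts in the results below was not tested in either line. Summed T cell, macrophage, fibroblast and erythroid markers stayed at or below 26.6 CPM in every library. In RNA from a bulk culture, fewer cells of a kind and less RNA per cell cannot be told apart.

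Levels are CPM on TMM-scaled library sizes, differences are log2 fold changes with their standard errors (SE), and a gene was called where edgeR's quasi-likelihood test gave an adjusted p below 0.05 over all genes of the line. The summed level of complex I rose from 4642 ± 234 CPM (SD, n = 3) in naive to 5258 ± 88.8 CPM in bortezomib-resistant 5TGM1. In 8226 the complex I sum was 4342 ± 226 CPM in naive, 4194 ± 214 CPM in bortezomib-resistant and 3694 ± 231 CPM in carfilzomib-resistant libraries. The naive and bortezomib-resistant 8226 libraries overlapped in this sum, whereas all carfilzomib-resistant libraries were below them. The complex IV sum was 2485, 2899 and 2895 CPM in naive 8226, 2731, 2543 and 2931 CPM in bortezomib-resistant and 1964, 2215 and 1773 CPM in carfilzomib-resistant libraries. Complex IV was thus lowest in the carfilzomib-resistant group in every library, and the other groups overlapped. The ATP synthase sum was 5177 ± 163 CPM in bortezomib-resistant against 4611 ± 219 CPM in naive 8226 and 4468 ± 89.2 CPM in carfilzomib-resistant 8226, and the complex II sum was 507 ± 9.12 CPM against 598 ± 15.4 and 568 ± 19.4 CPM. These sums are descriptions, and a few abundant subunits carry most of each.

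**Figure D1:**
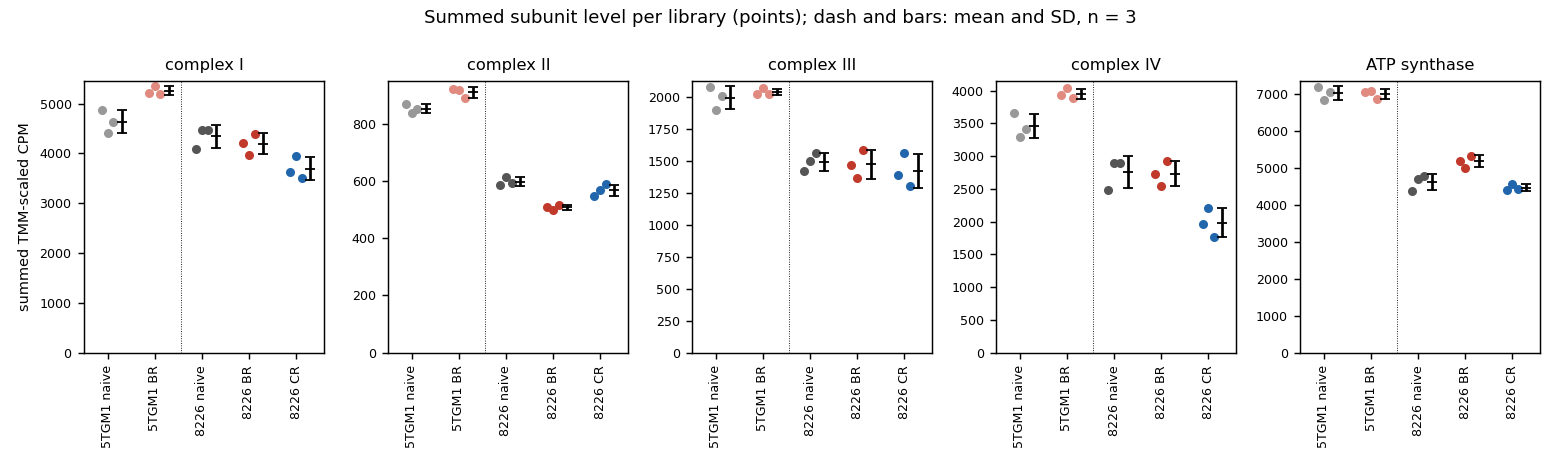
Summed level of the nuclear subunits of each complex in every library (points, TMM-scaled CPM on the vertical axis), with the mean and SD of the 3 libraries of each group beside them; BR is bortezomib-resistant and CR carfilzomib-resistant. Complex IV lies at 1773 to 2215 CPM in the carfilzomib-resistant 8226 libraries and at 2485 CPM or more in the other 8226 libraries.

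In bortezomib-resistant 5TGM1 the respiratory chain genes moved mostly up, by small amounts. Of 80 members, 49 were called higher and 7 lower, where 34.0% of all 11974 tested genes were called higher and 33.2% lower. The median log2 change was 0.14 for the members and 0.00445 for all genes. Complex I carried the largest part, with 24 of 34 subunits higher and 1 lower. Complex IV had 10 of 15 higher and 2 lower, ATP synthase 9 of 15 and 2, complex II 2 of 4 and none, and complex III 1 of 8 and 2. The 4 non-subunits had 3 higher and 0 lower. A single member rose by 2-fold or more and none fell by as much, where 3.67% of all genes were called that much higher and 6.15% lower.

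That member was Cox6a2, the heart and skeletal muscle form of a complex IV subunit. Its level was 63.3, 56.8 and 58.2 CPM in naive and 184, 188 and 189 CPM in bortezomib-resistant 5TGM1. The libraries were far apart, and the difference was 1.65 ± 0.05 (SE) in log2, a fold of 3.15 (edgeR adjusted p = 1.7e-14). Its widely expressed paralog Cox6a1 went from 368 ± 14.5 to 474 ± 17.5 CPM (SD, n = 3), a log2 change of 0.36 ± 0.04. In complex I, Ndufa1, an accessory subunit needed to build the membrane arm, stood at 113, 95.6 and 92.3 CPM in naive and 152, 147 and 142 CPM in resistant libraries. Its log2 change was 0.55 ± 0.06 (edgeR adjusted p = 6.6e-07), and that of the accessory subunit Ndufa7 was 0.52 ± 0.05. Ndufb9 and Ndufb10, of the membrane arm, rose by 0.41 ± 0.05 and 0.42 ± 0.05. Of the core subunits, Ndufv1, which binds NADH, had a log2 change of 0.21 ± 0.04 and was called, while Ndufs1 at 0.07 ± 0.04 was not.

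In complex II of 5TGM1, Sdhb, the iron-sulfur subunit, and Sdhc, a membrane anchor, rose by 0.33 ± 0.04 and 0.18 ± 0.04. Sdha, the flavin-bearing subunit, and Sdhd, the other anchor, had log2 changes of -0.01 and -0.05 and were not called. The largest fall among members was that of Atp5g3, one of the genes for the membrane ring subunit c. It stood at 565, 531 and 541 CPM in naive and 370.0, 377 and 370.0 CPM in resistant libraries, with no overlap and a log2 change of -0.55 ± 0.04 (edgeR adjusted p = 3.0e-09). The other genes for the same subunit, Atp5g1 and Atp5g2, had log2 changes of -0.01 ± 0.04 (not called) and 0.18 ± 0.06 (called). The libraries of Atp5g2 overlapped, and its call was lost without naive replicate 2 (edgeR adjusted p = 0.0716) or without bortezomib-resistant replicate 1 (adjusted p = 0.112). Atp5a1 and Atp5b, the subunits that form the catalytic head, had changes of -0.07 and -0.06 and were not called. Uqcr10, a small complex III subunit, fell by 0.29 ± 0.05, while Uqcrq rose by 0.32 ± 0.04. Uqcrc1, a core protein of complex III, was called lower at -0.15 ± 0.04, and Uqcrfs1, at 0.07, and Uqcrb, at 0.11, were not called. Ndufa8 was the complex I subunit called lower, at -0.24 ± 0.05.

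In the rest of ATP synthase of 5TGM1, Atp5d and Atp5c1, subunits of the rotating stalk, rose by 0.28 ± 0.04 and 0.26 ± 0.04, and Atp5j2 was called lower at -0.12 ± 0.05. In complex IV, Ndufa4 rose by 0.29 ± 0.05. Cox4i1, at 0.11 ± 0.05 with overlapping libraries, was called at an edgeR adjusted p of 0.0498. Cox7a2 and Cox8a were called at 0.10 ± 0.04 and 0.11 ± 0.05. Cox5a at -0.02, Cox6b1 at 0.06 and Cox7b at -0.06 were not called. The calls of Cox4i1, Cox7a2, Cox8a, Atp5j2 and Uqcrc1 did not hold without single libraries. That of Cox4i1 was lost without naive replicate 2 or 3 or resistant replicate 1 or 2 (edgeR adjusted p = 0.0894 to 0.256), in DESeq2's test (0.0575), with DESeq2's size factors (0.0648), with counts taken without regard to strand (0.0525) and with the replicate block (0.0629). That of Cox7a2 was lost with the replicate block (0.0624) and without replicate 2 or 3 of either group (0.0522 to 0.134). That of Cox8a was lost without naive replicate 2 or 3 or resistant replicate 1 or 3 (0.0518 to 0.182) and with DESeq2's size factors, that of Atp5j2 without naive replicate 1 or resistant replicate 2 or 3 (0.0997 to 0.154), and that of Uqcrc1 without replicate 3 of either group (0.0705 and 0.0775).

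**Figure D2:**
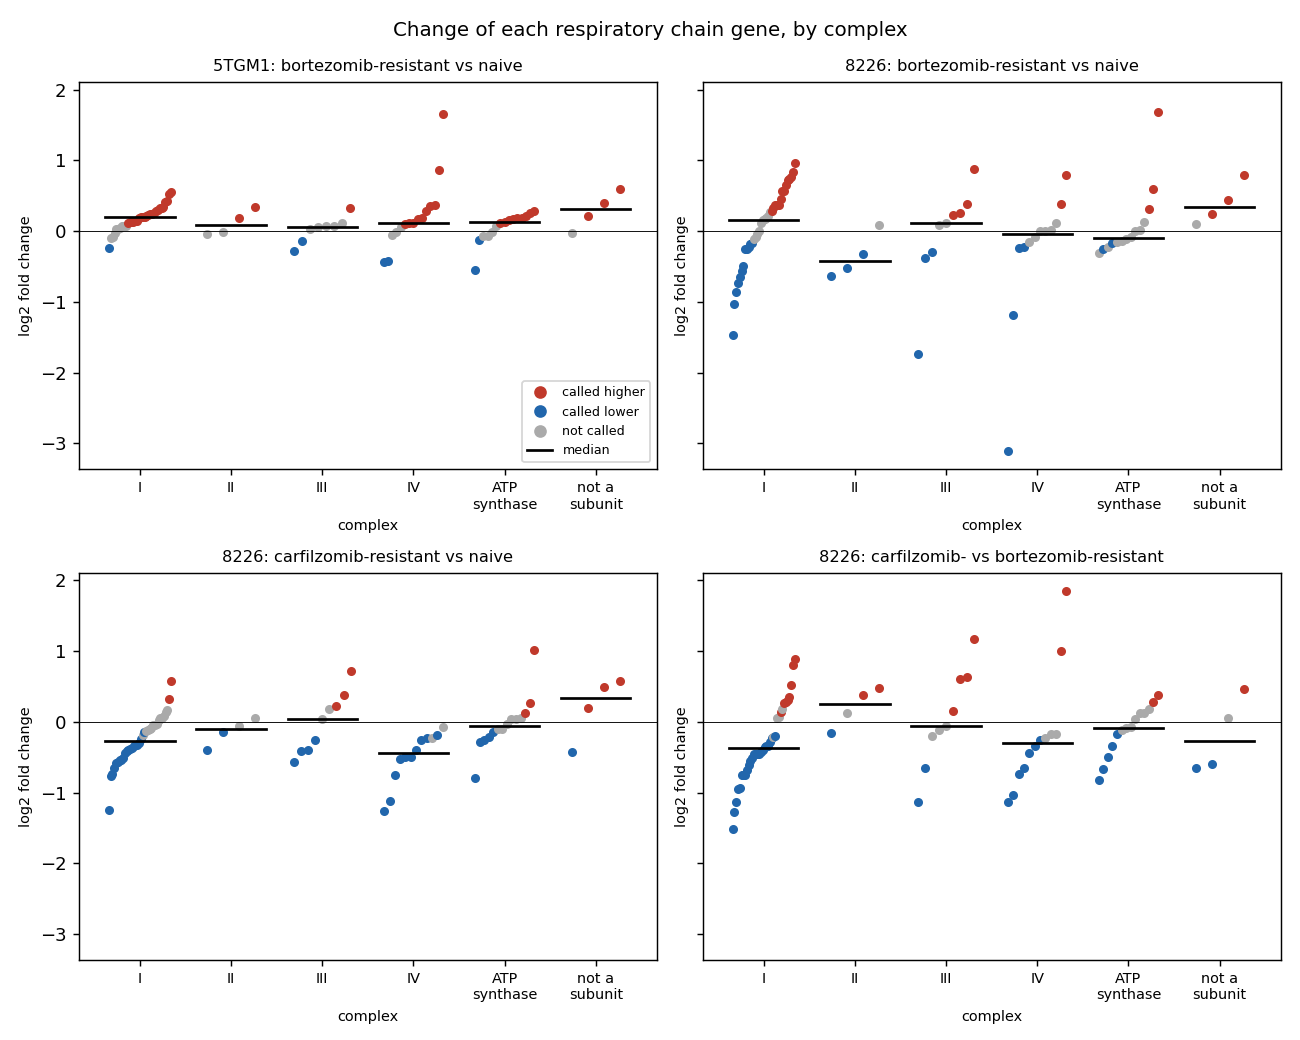
Log2 fold change of each member (1 point per gene, vertical axis) by complex (horizontal axis) in the 4 comparisons, coloured by the edgeR call, with a line at the median of each complex. In 5TGM1 most points lie between 0 and 0.5; in bortezomib-resistant 8226 they spread on both sides of 0, and in carfilzomib-resistant against naive 8226 all 12 complex IV points lie below 0.

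In bortezomib-resistant 8226 the members split, as all genes did, with smaller shares called in each direction (32.9% and 30.4%). Of 79, 26 were called higher and 24 lower, where 38.2% of all 13910 genes were called higher and 41.6% lower. The median log2 change was 0.01, against -0.03 for all genes. By 2-fold or more, 1 member was higher and 5 lower, against 13.1% and 19.4% of all genes. Complex I had 14 of 36 higher and 12 lower, complex III 4 of 9 and 3, complex IV 2 of 12 and 4, and ATP synthase 3 of 14 and 2. Complex II had none higher and 3 of 4 lower. The 4 non-subunits, which are part of the 79, had 3 higher and 0 lower. The split depended on the scaling: with library size alone in place of TMM, 40 members were called higher and 14 lower, and the median of all genes moved up by 0.18.

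The largest rise was that of ATP5I, subunit e of ATP synthase, which lies in the membrane where enzyme dimers meet. Its level was 45.3, 55.4 and 56.2 CPM in naive, 163, 153 and 188 CPM in bortezomib-resistant and 106, 118 and 92.5 CPM in carfilzomib-resistant libraries. The 3 groups did not overlap. The log2 change against naive was 1.69 ± 0.10 with bortezomib resistance (edgeR adjusted p = 4.0e-10) and 1.01 ± 0.10 with carfilzomib resistance (adjusted p = 2.4e-07). ATP5A1, the alpha subunit of the catalytic head, was at 1024, 1074 and 1072 CPM in naive and 1602, 1575 and 1613 CPM in bortezomib-resistant libraries. It rose by 0.60 ± 0.05, whereas its partner ATP5B, the beta subunit, had a change of 0.01 ± 0.05 and overlapping libraries (1241 ± 33.6 and 1249.7 ± 41.2 CPM).

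COX4I1, the common form of the complex IV subunit that binds ATP, stood at 258, 277 and 282 CPM in naive, 459, 445 and 517 CPM in bortezomib-resistant and 224, 249 and 224 CPM in carfilzomib-resistant 8226. It was highest in the bortezomib-resistant libraries, with a log2 change of 0.80 ± 0.07 (edgeR adjusted p = 2.0e-08). COX4NB, which is transcribed away from COX4I1 out of the same short stretch of chromosome 16, was at 34.3, 34.9 and 38.5 CPM in naive and 60.2, 62.9 and 63.8 CPM in bortezomib-resistant libraries. Its change was 0.79 ± 0.06. With carfilzomib resistance COX4I1 was lower than naive, by -0.23 ± 0.07, and COX4NB higher, by 0.19 ± 0.06.

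The promoters of these genes are shown because ATP5I and COX4I1 had the largest bortezomib-linked rises of ATP synthase and complex IV, and NDUFA4L2 the largest fall of any member. They are bases upstream of the RefSeq gene start (build GRCh38.p14), 5′ to 3′ on the gene's strand. Capitals mark matches, on either strand, to the NRF1 motif (GCGC, any base, then TGCGC) or CCGGAA (the core bound by ETS factors such as GABPA) in the first pair, and to GCGTG (a form of the hypoxia response core) in the last. Hypoxia cores are left unmarked in the first pair, so the capitals do not compare the genes. Over 250 bases, ATP5I held 3 matches to GCGTG and 2 to ACGTG, another form of that core. NDUFA4L2 held 2 and 0, and COX4I1 0 and 0. The COX4I1 stretch is the whole of the 150 bases between its start and that of COX4NB (chr16:85799545-85799694, plus strand), and holds 1 CCGGAA match. The ATP5I stretch is 250 bases (chr4:674277-674526, minus strand) and holds 2 matches to the NRF1 motif. The NDUFA4L2 stretch is 150 bases (chr12:57240763-57240912, minus strand).
COX4I1: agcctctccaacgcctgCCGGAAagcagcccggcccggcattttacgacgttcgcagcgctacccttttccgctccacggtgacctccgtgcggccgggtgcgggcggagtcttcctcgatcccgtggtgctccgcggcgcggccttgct
ATP5I: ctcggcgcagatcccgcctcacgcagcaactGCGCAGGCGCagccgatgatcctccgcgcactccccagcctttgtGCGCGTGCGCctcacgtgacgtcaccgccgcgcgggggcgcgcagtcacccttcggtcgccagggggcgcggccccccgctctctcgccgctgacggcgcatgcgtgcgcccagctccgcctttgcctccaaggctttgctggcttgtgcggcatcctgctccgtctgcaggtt
NDUFA4L2: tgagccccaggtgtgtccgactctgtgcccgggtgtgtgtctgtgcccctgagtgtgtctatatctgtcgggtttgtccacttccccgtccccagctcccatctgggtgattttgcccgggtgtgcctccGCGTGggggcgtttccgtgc
In the 250 bases upstream of the start, 13 of the 65 members of 8226 with a window held the NRF1 motif (20.0%, against 5.53% of 27305 genes), and 26 held CCGGAA (40.0% against 14.8%). GCGTG was in 46.2% of the members' windows and 31.9% of all, and the other hypoxia core searched, ACGTG, in 23.1% and 18.7%. The 27305 genes were not limited to those tested in 8226, nor matched to the members in level or base composition. The median bortezomib-linked log2 change was 0.11 in the 13 members with the NRF1 motif and 0.06 in the 52 without, and 0.05 in the 26 with CCGGAA and 0.12 in the 39 without. With carfilzomib resistance the medians were -0.11 with and -0.24 without the NRF1 motif, and -0.10 with and -0.24 without CCGGAA. Between the resistant lines they were -0.34 and -0.26, and -0.21 and -0.40. These are descriptions with no test, and a match describes letters only.

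NDUFA4L2, a paralog of NDUFA4 known as a target of the hypoxia factor HIF-1, was at 5.92, 6.51 and 6.24 CPM in naive, 0.762, 0.554 and 0.822 CPM in bortezomib-resistant and 2.66, 2.68 and 2.47 CPM in carfilzomib-resistant 8226. Each resistant group was below naive in every library. The log2 changes against naive were -3.11 ± 0.14 (edgeR adjusted p = 1.0e-11) and -1.26 ± 0.10 (adjusted p = 3.0e-08). It was the lowest member of 8226 in naive libraries. NDUFA4 itself, a subunit of complex IV, had a change of -0.01 ± 0.08 in bortezomib-resistant and -0.75 ± 0.09 in carfilzomib-resistant libraries.

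The next largest falls in bortezomib-resistant 8226 came from complexes III, I and IV. UQCRB, the ubiquinone-binding protein of complex III, was at 226, 286 and 222 CPM in naive and 77.8, 68.7 and 73.2 CPM in bortezomib-resistant libraries, far below. Its log2 change was -1.74 ± 0.11 (edgeR adjusted p = 9.2e-10). NDUFB10, of the complex I membrane arm, went from 153, 162 and 176 CPM to 58.4, 54.3 and 64.8 CPM, a change of -1.47 ± 0.08 (adjusted p = 5.7e-11). COX5A, a complex IV subunit on the matrix side, went from 294, 346 and 339 CPM to 141, 142 and 149 CPM, a change of -1.18 ± 0.06 (adjusted p = 1.3e-10). NDUFB9 followed at -1.04 ± 0.06, and NDUFV2, an iron-sulfur subunit beside the NADH site, at -0.86 ± 0.06. None of these genes had overlapping libraries. In ATP synthase, ATP5O and ATP5H, of its peripheral stalk, were called lower at -0.26 ± 0.06 and -0.17 ± 0.05. With library size alone the call of ATP5O was lost and ATP5H stood at 0.01 (edgeR adjusted p = 0.822).

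In the same cells other subunits of these complexes rose. NDUFA2 was at 37.6, 39.8 and 44.4 CPM in naive and 76.3, 74.2 and 86.2 CPM in bortezomib-resistant libraries, a log2 change of 0.96 ± 0.09 (edgeR adjusted p = 1.1e-07). UQCRQ rose by 0.88 ± 0.10, NDUFS5 by 0.83 ± 0.08, NDUFS4, an accessory subunit mutated in Leigh syndrome, by 0.77 ± 0.07, and NDUFC1 by 0.74 ± 0.07. Of the complex I core, NDUFS1 rose by 0.29 ± 0.05, while NDUFV1 was called lower at -0.25 ± 0.07. The NDUFV1 call was lost with library size alone (-0.06, adjusted p = 0.409). In complex II, SDHD went from 154, 173 and 166 CPM to 110, 104 and 105 CPM (-0.63 ± 0.06), SDHC fell by 0.52 on the log2 scale and SDHB by 0.32, and SDHA, at 0.09 ± 0.05, was not called. SDHC was at -0.33, SDHB at -0.13 and NDUFS1 at 0.47 with library size alone.

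**Figure D3:**
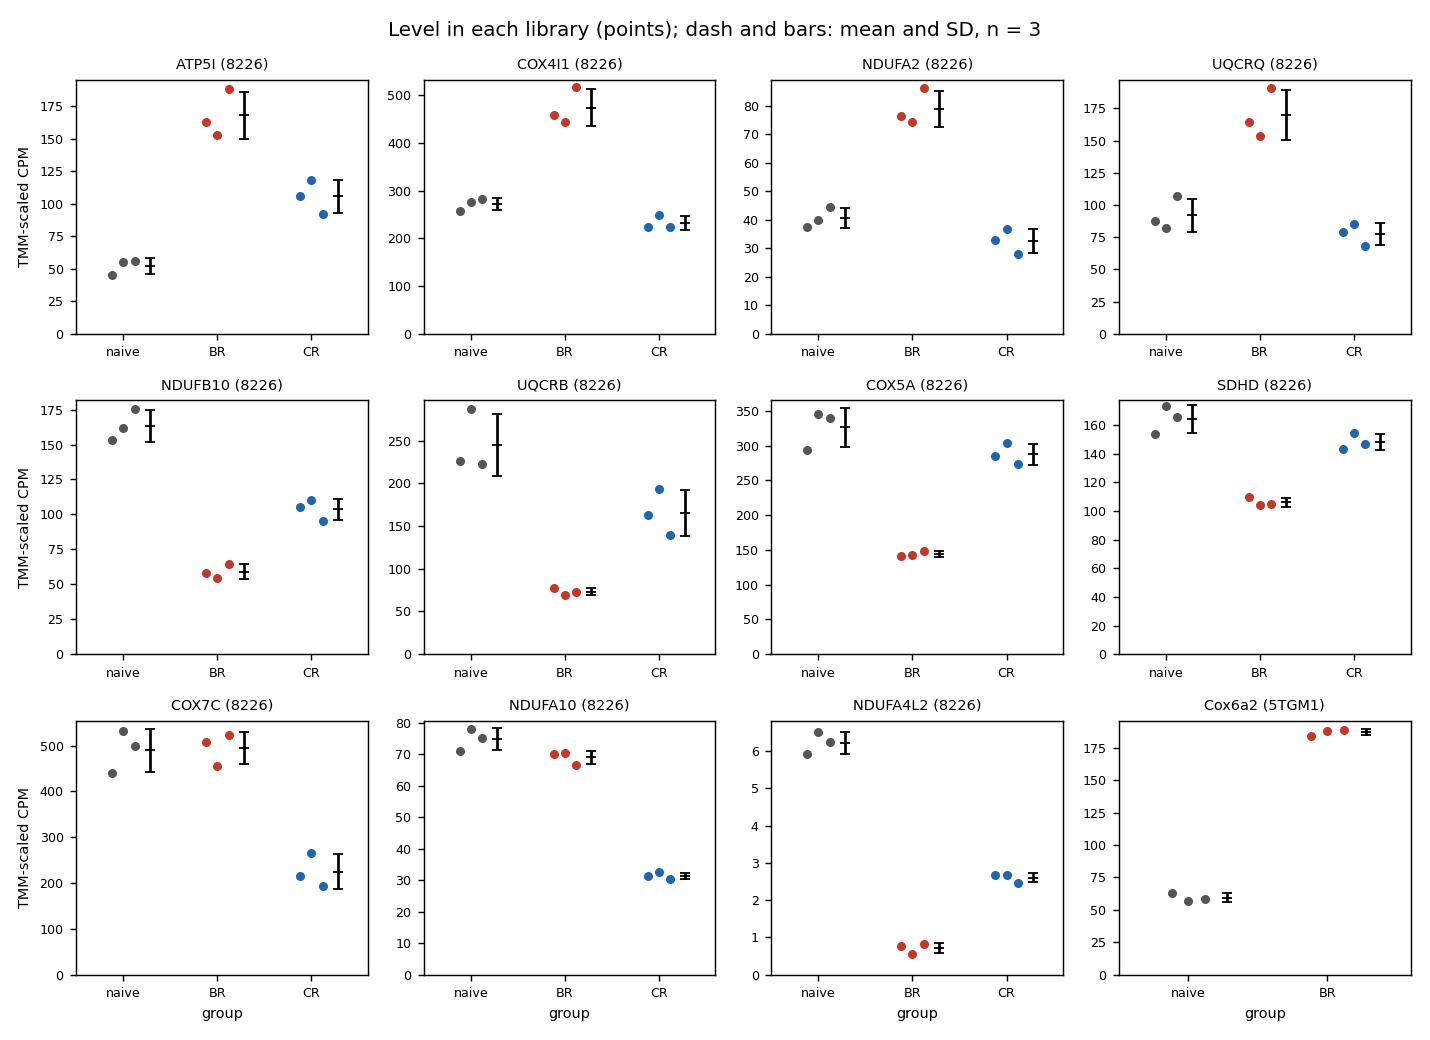
Level in each library (points, TMM-scaled CPM from 0 on the vertical axis) of 11 members in 8226 and of Cox6a2 in 5TGM1, with the mean and SD of 3 libraries; BR is bortezomib-resistant and CR carfilzomib-resistant. ATP5I is raised in both resistant groups, COX4I1, NDUFA2 and UQCRQ in BR, and COX7C and NDUFA10 are low in CR.

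In carfilzomib-resistant 8226 the members moved mostly down. Against naive, 11 were called higher and 42 lower of 79, where 35.0% of all genes were called higher and 36.7% lower. The median log2 change was -0.19 for members and -0.00356 for all genes. By 2-fold or more, 1 member was higher and 3 lower, against 10.9% and 13.4% of all genes. In complex IV, 10 of 12 genes were called lower and none higher, with a median of -0.45. In complex I, 20 of 36 were lower and 2 higher, with a median of -0.27. ATP synthase had 5 of 14 lower and 3 higher, complex III 4 of 9 and 3, and complex II 2 of 4 and none. The 4 non-subunits, which are part of the 79, had 1 lower and 3 higher. In complex II, SDHC was at -0.40 ± 0.06 and SDHD at -0.15 ± 0.05, and the call of SDHD was lost with library size alone (edgeR adjusted p = 0.145), without naive replicate 2 (0.0795) and without carfilzomib-resistant replicate 1 (0.132) or 3 (0.0645). This comparison and that of the bortezomib-resistant line share the naive libraries.

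COX7C, a small accessory subunit of complex IV, was at 439, 532 and 498 CPM in naive, 508, 456 and 522 CPM in bortezomib-resistant and 216, 266 and 193 CPM in carfilzomib-resistant libraries. The carfilzomib-resistant libraries were apart from both other groups, with a log2 change against naive of -1.12 ± 0.10 (edgeR adjusted p = 7.0e-08). NDUFA10, an accessory subunit of complex I, was at 71.1, 78.1 and 75.1 CPM in naive, 70.2, 70.3 and 66.5 CPM in bortezomib-resistant and 31.3, 32.4 and 30.4 CPM in carfilzomib-resistant libraries. Its change was -1.25 ± 0.06 (adjusted p = 2.0e-11). NDUFB1 fell by 0.77, NDUFS4 by 0.74 and ATP5J2 by 0.80 on the log2 scale. Of the other complex IV genes, NDUFA4 was at -0.75 ± 0.09, COX7A2 at -0.53 ± 0.12, COX6C at -0.50 ± 0.09, COX7B at -0.50 ± 0.08 and COX8A at -0.39 ± 0.09. COX5A and COX6B1 were called lower by small margins, at -0.18 ± 0.06 and -0.26 ± 0.09, and lost the call with library size alone, without naive replicate 2 and without carfilzomib-resistant replicate 1 or 3 (edgeR adjusted p = 0.0508 to 0.114). COX5B and COX6A1, at -0.07 and -0.23, were not called.

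Among the genes higher in carfilzomib-resistant 8226, COX7A2L was at 0.57 ± 0.06 (edgeR adjusted p = 2.0e-07). UQCRFS1, the Rieske iron-sulfur protein, and UQCRC1, a core protein of complex III, rose by 0.39 ± 0.06 and 0.22 ± 0.07. ATP5G3, one of the subunit c genes, rose by 0.26 ± 0.06, while ATP5G1, at 0.03, and ATP5G2, at 0.04, were not called. UQCRC2, the other core protein, was called lower at -0.41 ± 0.06, as was ATP5H at -0.28 ± 0.05. UQCRHL, a near copy of UQCRH, was at 7.00, 7.49 and 6.40 CPM in naive and 8.97, 8.02 and 17.1 CPM in resistant libraries. Its change of 0.72 ± 0.22 rested on the highest of these: without carfilzomib-resistant replicate 3 it was 0.29 (adjusted p = 0.0764). ATP5B, at 0.13 ± 0.05, lost its call without naive replicate 1 (edgeR adjusted p = 0.112) or 2 (0.0590), without carfilzomib-resistant replicate 2 (0.0618) or 3 (0.152), with DESeq2's size factors (0.0860), with only the 2 groups compared (0.0615) and in DESeq2's test (0.0590).

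Set against each other, the resistant 8226 lines differed in about the same share of members as of all genes, with more members lower. With carfilzomib resistance, 19 were higher and 41 lower than with bortezomib resistance, where 39.9% of all genes were higher and 37.0% lower. The median was -0.22 for members and 0.02 for all genes. By 2-fold or more, 2 members were higher and 6 lower, against 15.5% and 12.4% of all genes. With library size alone, 13 were higher and 49 lower, and the median of all genes moved by -0.10. Complex I had 24 of 36 lower and 8 higher, and complex IV 7 of 12 lower and 2 higher. The 4 non-subunits had 2 lower and 1 higher. NDUFS4 differed most among the falls: it was at 82.1, 76.9 and 79.6 CPM in bortezomib-resistant and 26.8, 30.1 and 26.8 CPM in carfilzomib-resistant libraries, on either side of the naive 42.6, 48.8 and 48.5 CPM. The log2 difference was -1.51 ± 0.07 (edgeR adjusted p = 1.4e-11). NDUFA2 (-1.28 ± 0.09), COX7C (-1.14 ± 0.10), NDUFA10 (-1.14 ± 0.06), UQCRQ (-1.14 ± 0.10) and COX4I1 (-1.03 ± 0.07) also fell by over 2-fold. In the other direction stood NDUFA4L2 (1.85 ± 0.15), UQCRB (1.18 ± 0.11), COX5A (1.00 ± 0.06), NDUFB9 (0.89 ± 0.06) and NDUFB10 (0.81 ± 0.07), the genes that were lowest in the bortezomib-resistant line. ATP5G3 and ATP5D were higher by 0.37 ± 0.06 and 0.28 ± 0.10, and UQCR10 was at -0.65 ± 0.08. The call of ATP5D was lost with library size alone (edgeR adjusted p = 0.194) and without bortezomib-resistant replicate 1 or 2 or carfilzomib-resistant replicate 2 (0.0574 to 0.0814). In complex II, SDHB and SDHD were higher by 0.38 ± 0.05 and 0.48 ± 0.06. SDHA was lower by -0.15 ± 0.05, a call lost without bortezomib-resistant replicate 3, without carfilzomib-resistant replicate 1 and without carfilzomib-resistant replicate 2. SDHA was at -0.28 with library size alone.

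Bortezomib resistance was the condition shared by the mouse and human lines, so its change was tested between them. Over the 75 members with the same symbol, the change was called higher in 8226 than in 5TGM1 for 18 and lower for 34, where 29.8% and 34.9% of all 11849 matched genes were called. In complex II, 3 of 4 genes were called lower in 8226. SDHB rose by 0.33 in 5TGM1 and fell by 0.32 on the log2 scale in 8226, a difference of -0.67 ± 0.07 (edgeR adjusted p = 3.3e-08). SDHC went from a rise of 0.18 to a change of -0.52, a difference of -0.72 ± 0.07 (adjusted p = 4.5e-08). In complex IV, 7 of 12 were lower and 1 higher. NDUFA4L2 moved in opposite directions: it was at 1.36, 1.34 and 1.08 CPM in naive and 2.16, 2.48 and 2.31 CPM in resistant 5TGM1, a change of 0.87 ± 0.13 that is opposite to that in 8226. By their calls, 15 members were higher in both lines and 1, UQCRC1, lower in both, while 15 were higher in 5TGM1 and lower in 8226 and 2 the reverse. As shares of the 75 these are 20.0%, 1.33%, 20.0% and 2.67%, beside 14.3%, 15.7%, 13.2% and 11.2% of the 8945 genes matched and tested in both lines. NDUFA7 was among those higher in both, at 0.52 and 0.72, with no called difference (0.19 ± 0.10, adjusted p = 0.102). With library size alone, 27 members were called higher and 22 lower in 8226.

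**Figure D4:**
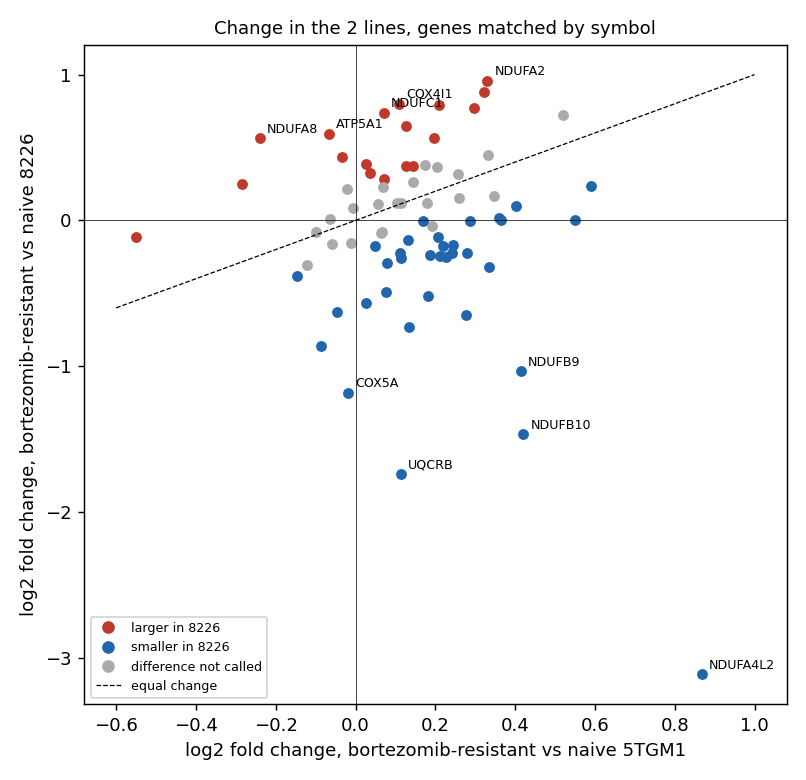
Log2 fold change with bortezomib resistance in 5TGM1 (horizontal axis) and in 8226 (vertical axis) of the 75 members matched by symbol, coloured by the edgeR test of the difference between the lines; the dashed line marks equal change. The changes in 5TGM1 stay within -0.55 and 0.87, and those in 8226 reach from -3.11 to 0.96.

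In 8226 the changes of members correlated with those of the genes next to them on the chromosome, though not for every member. Each member was set beside the tested non-member genes nearest to it in the RefSeq order, 10 on each side where the chromosome had them. Across the 79 members, the member's own log2 change and the median of its neighbours had a Pearson r of 0.63 and a Spearman rho of 0.70 with bortezomib resistance. With carfilzomib resistance r was 0.62 and rho 0.54, and between the resistant lines r was 0.66 and rho 0.68. Without the 4 members with the most extreme neighbours the r values were 0.54, 0.53 and 0.61. For all other genes r was 0.17, 0.15 and 0.17, and rho 0.31, 0.29 and 0.32. These correlations are across genes, which share libraries and neighbours and are not independent. The other genes were not matched to the members in level or in size of change. With bortezomib resistance the log2 changes of all tested genes but members ran from -14.6 to 13.7, and those of members from -3.11 to 1.69. How much of the gap in r and rho goes with this was not tested. With bortezomib resistance, 62 of the 79 members had the sign of their neighbours' median (78.5%, against 62.6% of other genes). With carfilzomib resistance 46 did (58.2% against 61.6%), and between the resistant lines 53 did (67.1% against 61.4%).

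Several members with large changes lay beside neighbours that moved the same way. ATP5I rose by 1.69 with bortezomib resistance beside a neighbour median of 1.44, and by 1.01 with carfilzomib resistance beside 0.98. Its 14 neighbours, at the end of chromosome 4, included 12 with positive values in each comparison against naive. COX4I1 was at 0.80 beside 0.80, NDUFA2 at 0.96 beside 0.83 and UQCRQ at 0.88 beside 0.71. COX5A was at -1.18 beside -1.49, with 1 of its 20 neighbours above 0. NDUFB10 was at -1.47 beside -0.84, with none of 20 above 0, and UQCRB at -1.74 beside -0.76. With carfilzomib resistance NDUFA10 was at -1.25 beside -0.86 and COX7C at -1.12 beside -0.55. All 6 members on chromosome 5 (SDHA, NDUFS6, NDUFS4, COX7C, UQCRQ and NDUFA2) were lower in carfilzomib-resistant than in bortezomib-resistant 8226, with a median of -1.14, while other genes of that chromosome had a median of -0.47. UQCRQ was at -1.14 beside -1.02, NDUFA2 at -1.28 beside -0.73, COX7C at -1.14 beside -0.71 and NDUFS4 at -1.51 beside -0.37. SDHA, at -0.15 beside 0.07, and NDUFS6, at -0.28 beside -0.02, did not follow their neighbours. The NDUFS6 call was lost without bortezomib-resistant replicate 3 (edgeR adjusted p = 0.0666) or carfilzomib-resistant replicate 3 (0.0908). The changes of others lay farther from those of their neighbours. With bortezomib resistance NDUFC1 was at 0.74 beside 0.05, NDUFA7 at 0.72 beside -0.05, NDUFA3 at 0.65 beside -0.46 and NDUFS5 at 0.83 beside 0.27. With carfilzomib resistance NDUFB1 was at -0.77 beside 0.06 and NDUFS4 at -0.74 beside -0.09. For NDUFA4L2, the changes of -3.11 and -1.26 stood beside neighbour medians of -0.03 and -0.03. SDHC, at -0.52 and -0.40, stood beside 0.11 and 0.81.

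With carfilzomib resistance against naive, most members also lay below their neighbours. The median was -0.19 for the members and 0.03 for their neighbours' values, so this largely restates the fall given above. Of the 79 members, 61 lay below their neighbours' median in that comparison (77.2%, against 50.2% of other genes), and the median difference from the neighbours was -0.23. Between the resistant lines 62 lay below (78.5% against 49.7%), and with bortezomib resistance against naive 27 did (34.2% against 50.0%). The medians of members and neighbours were -0.22 and 0.11 between the resistant lines. What the shared change of neighbouring genes comes from was not tested.

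**Figure D5:**
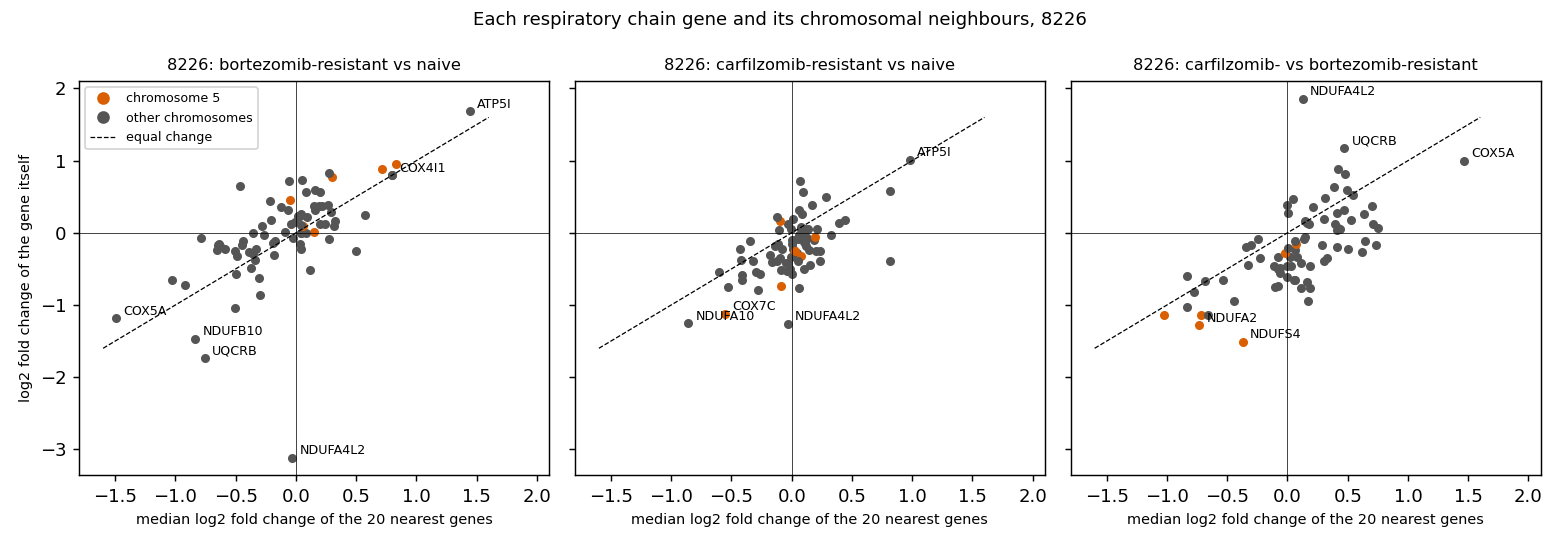
Log2 fold change of each member in 8226 (vertical axis) against the median of its nearest tested non-member genes on the chromosome (horizontal axis), in the 3 comparisons of that line; members on chromosome 5 are in orange and the dashed line marks equal change. Points rise along the line in each panel, and in both comparisons of the carfilzomib-resistant line most points lie below it.

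The tissue-restricted paralogs were mostly at the floor. In 8226, COX4I2, COX6A2 and COX7A1 had no read in any library, so their level was under the 0.0514 to 0.0946 CPM that 3 counts are worth. In 5TGM1, Cox8b had none, Cox8c and Cox6b2 had 1 read each over the 6 libraries, and Cox7b2 was at 0.0752 CPM in naive. Cox4i2 and Cox7a1 were detected in 5TGM1 at 2.95 ± 0.19 and 1.27 ± 0.07 CPM (SD, n = 3) in naive and fell by 0.44 and 0.43 on the log2 scale. The call of Cox7a1 was lost in DESeq2's test (adjusted p = 0.0876), with counts taken without regard to strand (edgeR adjusted p = 0.144), and without naive replicate 1 (0.0648) or 2 (0.0595) or bortezomib-resistant replicate 2 (0.170). On the unscaled CPM used for membership, just inside the threshold lay Atp5l at 1.02, Ndufa4l2 at 1.26 and Cox7a1 at 1.27 CPM in 5TGM1. In 8226 the lowest members were NDUFA4L2 at 5.87 and UQCRHL at 6.57 CPM. The highest matching symbols below the threshold were Cox7b2 at 0.0752 CPM in 5TGM1 and, in 8226, ATP5EP2 at 0.494 and COX7B2 at 0.260 CPM. Counting kept reads that mapped to a single place, so a gene with near copies can be undercounted: Ndufs5 (no read) and Atp5l in the mouse files and ATP5E (0.166 CPM) in the human ones are therefore uncertain, as is UQCRHL.

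Assembly factors, which put the complexes together, were counted over lists drawn up with earlier results of these data known. The factors named here were chosen from them after their values were seen. Beside their counts, 34.0% of all genes were called higher and 33.2% lower in bortezomib-resistant 5TGM1. The shares were 38.2% and 41.6% in bortezomib-resistant and 35.0% and 36.7% in carfilzomib-resistant 8226 against naive. The lists are short, and they were not tested as sets. Of 9 complex I factors in 5TGM1, 5 were higher and 2 lower. Ndufaf3 rose from 11.9 ± 0.62 to 22.1 ± 0.77 CPM (log2 0.90 ± 0.06) and Nubpl by 0.68 ± 0.05. In 8226, 3 of 13 were higher and 7 lower in each resistant line against naive, and ACAD9, an acyl-CoA dehydrogenase that also assembles complex I, was at 59.5 ± 2.80 CPM in naive, 31.4 ± 1.64 CPM with bortezomib and 28.4 ± 0.86 CPM with carfilzomib resistance. All 4 complex II factors were lower in bortezomib-resistant 8226. ACN9 (SDHAF3), which helps insert iron-sulfur clusters into SDHB, was at 35.3, 38.4 and 41.3 CPM in naive, 10.4, 9.34 and 9.24 CPM in bortezomib-resistant and 0, 0.0483 and 0 CPM in carfilzomib-resistant libraries. It had 4616 reads in the naive group and 2 in the carfilzomib-resistant group, where SDHB itself was 172 ± 6.27 CPM against 165 ± 5.06 CPM in naive.

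Of 16 complex IV factors, 5 were higher and 5 lower in each resistant 8226 line against naive, no larger a share than among all genes. In carfilzomib-resistant 8226, COX17, the copper chaperone, went from 55.0 ± 3.62 to 26.3 ± 4.31 CPM (log2 -1.07 ± 0.10, edgeR adjusted p = 1.1e-07), and SURF1, mutated in Leigh syndrome, from 45.9 ± 3.82 to 23.4 ± 0.35 CPM (-0.97 ± 0.06). In bortezomib-resistant 8226 COX17 was at -0.27 ± 0.10 and SURF1 at -0.23 ± 0.06, calls that were lost with library size alone (edgeR adjusted p = 0.428 and 0.516) and, for COX17, without bortezomib-resistant replicate 2 (0.0914). ATPAF1, which assembles the head of ATP synthase around the beta subunit, was at 71.2, 75.1 and 68.8 CPM in naive, 22.1, 20.2 and 21.4 CPM in bortezomib-resistant and 74.9, 76.6 and 81.1 CPM in carfilzomib-resistant libraries. It fell by 1.76 on the log2 scale in the bortezomib-resistant line (adjusted p = 5.1e-13) and was not called in the carfilzomib-resistant one.

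Of 17 tested regulators of mitochondrial biogenesis and mitochondrial DNA expression, 4 were higher and 8 lower in bortezomib-resistant 5TGM1, 6 and 10 in bortezomib-resistant 8226, and 5 and 3 in carfilzomib-resistant 8226. In the same order, 34.0%, 38.2% and 35.0% of all genes were called higher and 33.2%, 41.6% and 36.7% lower. MTERF, a mitochondrial transcription terminator, was at 28.8, 32.5 and 28.3 CPM in naive 8226, 1.66, 1.69 and 1.64 CPM in bortezomib-resistant and 24.9, 25.6 and 24.8 CPM in carfilzomib-resistant libraries. In bortezomib-resistant 8226, NRF1 and GABPA, factors known to act on respiratory chain promoters, had log2 changes of -0.34 ± 0.06 and -0.46 ± 0.06, and TFAM, which packages mitochondrial DNA, one of -0.40 ± 0.05. With carfilzomib resistance these 3 were at -0.06, 0.07 and -0.02 and were not called. With library size alone the bortezomib-linked changes were smaller, at -0.15 for NRF1, -0.28 for GABPA and -0.21 for TFAM.

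Around the chain itself, SLC25A4, a carrier that trades ADP for ATP across the inner membrane, was at 25.2, 28.6 and 26.8 CPM in naive, 165, 153 and 161 CPM in bortezomib-resistant and 37.1, 37.3 and 34.5 CPM in carfilzomib-resistant 8226. The log2 changes against naive were 2.57 ± 0.06 and 0.43 ± 0.06 (edgeR adjusted p = 7.1e-15 and 1.3e-05). PDK1, a kinase that shuts pyruvate dehydrogenase and another known HIF-1 target, was at 205, 210.2 and 207 CPM in naive, 73.0, 76.3 and 73.6 CPM in bortezomib-resistant and 127, 124 and 133 CPM in carfilzomib-resistant libraries. Its order over the groups was that of NDUFA4L2, with log2 changes of -1.48 ± 0.05 and -0.70 ± 0.05. LDHA, a HIF-1 target as well, was at -0.05 ± 0.06 (not called) and -0.39 ± 0.06, and with library size alone its change in the bortezomib-resistant line was called higher at 0.14 (edgeR adjusted p = 0.0425). LDHA thus did not share the order of NDUFA4L2. PDK1 and LDHA were named after their values were seen, and a part of HIF-1 in these changes was not tested. In 5TGM1, Pdhb, a subunit of pyruvate dehydrogenase, fell from 170 ± 6.57 to 82.8 ± 1.52 CPM (log2 -1.04 ± 0.04, adjusted p = 2.4e-12). The 13 genes of the tricarboxylic acid cycle had 8 higher and 4 lower in bortezomib-resistant 5TGM1, 8 and 3 in bortezomib-resistant 8226 and 5 and 4 in carfilzomib-resistant 8226. Of all genes, 34.0%, 38.2% and 35.0% were called higher and 33.2%, 41.6% and 36.7% lower in these comparisons. IDH3B rose in all 3 comparisons, by 0.48 ± 0.04, 0.93 ± 0.05 and 0.73 ± 0.05. Cytochrome c, CYCS, was at -0.43 ± 0.07 in bortezomib-resistant and, without a call, at -0.15 ± 0.07 in carfilzomib-resistant 8226. HCCS, which attaches heme to cytochrome c, was at 0.34 ± 0.05 and -1.05 ± 0.05. With library size alone the bortezomib-linked values were -0.25 for CYCS and 0.53 for HCCS.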

How the data were processed

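RNA-seq libraries of 2 myeloma lines were analysed (15 libraries). The authors deposited 1 table of raw read counts per gene and library, and the submitters' processing notes name STAR, mm10 (GRCm38) and hg19 (GRCh37). Of the count columns, column 4 was used, and column 2 (without regard to strand) was the alternative. Counts were scaled by TMM within a line, low genes were removed with filterByExpr, and edgeR 4.0.16's quasi-likelihood test (R 4.3.3, limma 3.58.1) was applied with Benjamini-Hochberg adjustment over all genes. The 9 libraries of 8226 entered 1 fit, and the difference between lines was fitted over 12 libraries. DESeq2 1.42.0 was an alternative. The scripts were tested on simulated counts. Members and lists were chosen with earlier results of these data known. Members were named from candidates set by rule. Per comparison and complex, those of 10 CPM or more with libraries that did not overlap were ranked. Of these, the 2 called members with the largest rise and the 2 with the largest fall were taken. Other rules took all called members of a log2 change of 1 or more, fixed core subunits and paralog pairs. The 5 largest differences between lines in each direction were added. Not every gene under these rules is given for every comparison. From the pathway lists a selection was made, and it and other genes were chosen after their values were seen. Promoters and gene order came from RefSeq GRCh38.p14, another build than the counts, matched by symbol. The floor of 3 counts covers counting error only. The values of 1 member are not reported here.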

Additional observations from a re-analysis of the deposited data

Results flagged for a closer look

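For 10 members the change with bortezomib resistance differed between 8226 and 5TGM1 by edgeR's test of the difference itself, and they were named for it. Differences are the log2 change in 8226 minus that in 5TGM1, with their SE, and each line's own change follows. The change was lower in 8226 for NDUFA4L2, by -4.00 ± 0.20 (-3.11 and 0.87), and for NDUFB10, by -1.90 ± 0.09 (-1.47 and 0.42). UQCRB differed by -1.87 ± 0.11 (-1.74 and 0.11), NDUFB9 by -1.46 ± 0.08 (-1.04 and 0.41) and COX5A by -1.18 ± 0.08 (-1.18 and -0.02).

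The change was higher in 8226 for NDUFA8, an accessory complex I subunit, by 0.79 ± 0.09 (0.56 and -0.24), and for COX4I1, by 0.67 ± 0.09 (0.80 and 0.11). NDUFC1 differed by 0.65 ± 0.10 (0.74 and 0.07), ATP5A1 by 0.65 ± 0.07 (0.60 and -0.07) and NDUFA2 by 0.61 ± 0.10 (0.96 and 0.33). The edgeR adjusted p-values ran from 6.1e-13 for NDUFB10 to 2.0e-05 for NDUFA2. Genes were matched between species by symbol. Each line had a single bortezomib-resistant derivative, kept in 20 nM bortezomib for 5TGM1 and 10 nM for 8226. Line, species, dose and derivation therefore cannot be told apart.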

How the results depend on the processing

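Scaling by library size alone changed the most. For bortezomib-resistant against naive 8226 it gave 40 members higher and 14 lower (26 and 24 with TMM) and a median of 0.20, and ATP5H turned from -0.17 to 0.013 (edgeR adjusted p = 0.822) and LDHA from -0.05 to 0.14 (adjusted p = 0.0425). The cause was not tested. The number of members whose bortezomib change was lower in 8226 than in 5TGM1 went from 34 to 22. Without 1 library at a time, members called higher ranged from 34 to 54 in 5TGM1, from 23 to 30 in bortezomib-resistant 8226, from 10 to 12 in carfilzomib-resistant 8226 and from 15 to 21 between the resistant lines. Members called lower ranged from 5 to 8, 20 to 28, 35 to 45 and 35 to 45. Deviations from the group mean of same-numbered libraries correlated at -0.22 to -0.10 in 5TGM1 and -0.30 to 0.39 in 8226. Those of differently numbered libraries correlated at -0.10 to 0.25 and -0.33 to 0.28. With 3 libraries a group, whose deviations sum to 0, these values cannot decide whether the replicate numbers pair the libraries. With the replicate number as a block, 45 members were higher and 7 lower in 5TGM1, 26 and 26 in bortezomib-resistant 8226, 11 and 43 in carfilzomib-resistant 8226, 19 and 42 between the resistant lines, and 20 and 35 for the difference between the lines. With 3 libraries a group and 1 resistant line per drug and line, the tests speak of these libraries, and protein and respiration were not measured.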
